A study of Mus musculus with 6 samples.

Results

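The 9 genes described here carry cholesterol out of cells, store it as ester, release it again, or sense it: Abca1, Abcg1, Nr1h2, Nr1h3, Mylip, Soat1, Lipe, Nceh1 and Lcat. They were taken by a list of symbols from the 44788 genes of the count table; the rule uses no measured value, but the list was drawn up with earlier results of these data known. Expression was measured by RNA-seq in whole ovaries of C57BL/6 J mice aged 8 weeks, 3 Bnc1+/+ (wild type, replicates 1, 4 and 7) and 3 Bnc1tr/tr (replicates 1, 2 and 3). Bnc1tr/tr mice are homozygous for a short germline deletion in an exon of Bnc1 that shifts the reading frame and truncates BNC1, a transcription factor. The allele is present in every cell of the mouse, so changes in ovarian cells and changes elsewhere in the body cannot be told apart in these libraries. The study used the mice as a model of premature ovarian insufficiency and sequenced ovarian RNA to look for the mechanism behind the loss of their follicles. Estrous stage, and whether a library holds the RNA of 1 ovary or of several, are not given in the sources used here. The unit of every test is therefore the library, called an ovary below. The p-values set the difference between genotypes against the spread between the 6 libraries.

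Cholesterol leaves cells through ATP-binding cassette transporters: ABCA1 loads cholesterol onto lipid-poor apolipoprotein A-I, and ABCG1 passes it on to mature HDL particles. Both are transcribed under the liver X receptors, LXRα (Nr1h3) and LXRβ (Nr1h2), which are activated by oxysterols and bind DNA as heterodimers with a retinoid X receptor (RXR), typically at paired AGGTCA half-sites with a spacer of 4 bases (a DR4 element). Cholesterol that stays in the cell can be esterified by SOAT1 and kept in lipid droplets, from which LIPE (hormone-sensitive lipase) and NCEH1 release it. In the ovary, luteal and thecal cells hold such droplets as a store for steroid hormone synthesis, and lipoprotein receptors such as the HDL receptor SCARB1 refill it.

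The libraries held 25247770 to 34406296 counts, and each of the 9 genes was counted at least 68 times in every ovary. Levels are given as CPM, read counts of a gene relative to the total of its library after TMM scaling, with mean ± SD (n = 3 ovaries per genotype). Differences are log2 fold changes of Bnc1tr/tr against Bnc1+/+ from edgeR's quasi-likelihood test, and a gene was called at a Benjamini-Hochberg adjusted p under 0.05 over all 19423 genes tested. Bnc1 itself stood at 13.9, 13.4 and 13.1 CPM in Bnc1+/+ and at 18.7, 13.7 and 11.5 CPM in Bnc1tr/tr ovaries, and a gene count cannot show a short deletion, so it does not check the labels. Defining markers of luteal, granulosa, theca or stroma, and oocyte lineages were all detected. The luteal markers, however, summed to 18838 to 22891 CPM over 7 genes in Bnc1+/+ and to 6556 to 11269 CPM in Bnc1tr/tr ovaries. Of these 7 markers 6 were called lower, or 85.7%, where 4.19% of all genes tested were. In whole ovaries, fewer cells of a type and less RNA per cell cannot be told apart. Markers of oviduct, a tissue attached to the ovary, summed over 6 genes to 138 CPM in Bnc1+/+ replicate 1 and 511 CPM in Bnc1tr/tr replicate 3, against 7.93 to 25.2 CPM in the other ovaries.

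Per kilobase of annotated exon, so that genes can be compared, the levels in Bnc1+/+ ovaries ran from 47.7 ± 0.724 CPM for Nr1h2 down to 2.44 ± 0.496 CPM for Lcat. Soat1 came second with 31.1 ± 1.70 CPM per kilobase. Abca1 (17.2 ± 2.97), Lipe (15.8 ± 2.07) and Nceh1 (15.5 ± 1.32 CPM per kilobase) formed a middle group in which neighbours overlapped between ovaries. Mylip (6.12 ± 1.29), Nr1h3 (4.86 ± 0.126) and Abcg1 (3.40 ± 0.437 CPM per kilobase) followed. Apart from Abca1 and Lipe, and Lipe and Nceh1, no neighbours in the Bnc1+/+ order overlapped.

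The order was different in Bnc1tr/tr ovaries. Abca1, at 26.4 ± 6.98 CPM per kilobase, stood above Soat1 at 24.7 ± 1.31 there, although their ranges overlapped. At the low end, Abcg1 (2.23 ± 0.439 CPM per kilobase) stood below Lcat (2.36 ± 0.214), again with overlapping ranges. Nr1h2 was highest here too, at 45.4 ± 1.94 CPM per kilobase, and did not overlap the gene below it.

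**Figure D1:**
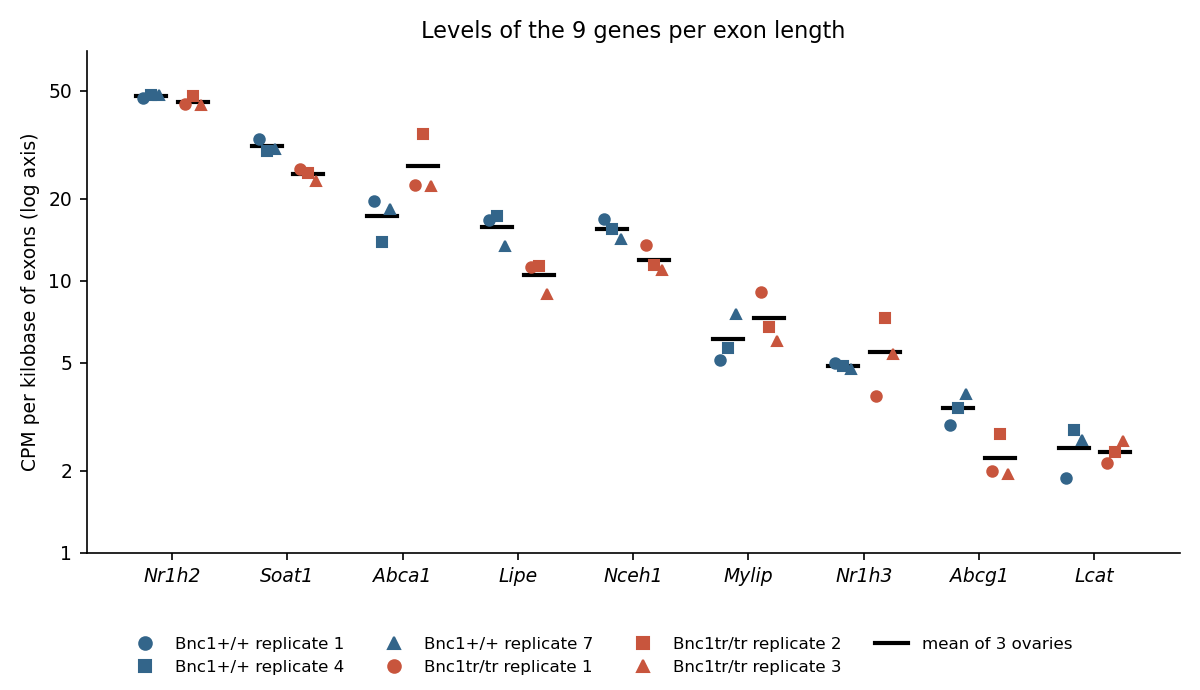
Each point is the level of 1 gene in 1 ovary, in CPM per kilobase of annotated exon on a log axis, with bars at the genotype means and genes ordered by the Bnc1+/+ mean. Nr1h2 is highest in both genotypes, and Abca1 and Soat1 change places between Bnc1+/+ (17.2 and 31.1) and Bnc1tr/tr (26.4 and 24.7).

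Across genotypes, Lipe was the single one of the 9 genes to pass the test, and it fell. That is 11.1% of the 9, where 7.06% of all genes tested were called in either direction and 4.19% were called lower. Abca1 was higher in every Bnc1tr/tr ovary than in any Bnc1+/+ ovary. Abcg1, Soat1, Lipe and Nceh1 were lower in every Bnc1tr/tr ovary than in any Bnc1+/+ ovary. Such a lack of overlap was found for 30.8% of all genes tested, 15% higher and 15.8% lower, and for 55.6% of the 9 genes. The same 5 genes had an unadjusted p under 0.05, which 24.2% of all genes reached, and the same 5 were called by DESeq2, which called 12.5% of all genes. The median log2 fold change of the 9 genes was −0.071, beside 0.018 over all genes tested. Without the ovary of each genotype that had the highest oviduct markers, none of the 9 was called by edgeR, and Lipe stood at a log2 fold change of −0.45 (Benjamini-Hochberg adjusted p = 0.236).

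**Figure D2:**
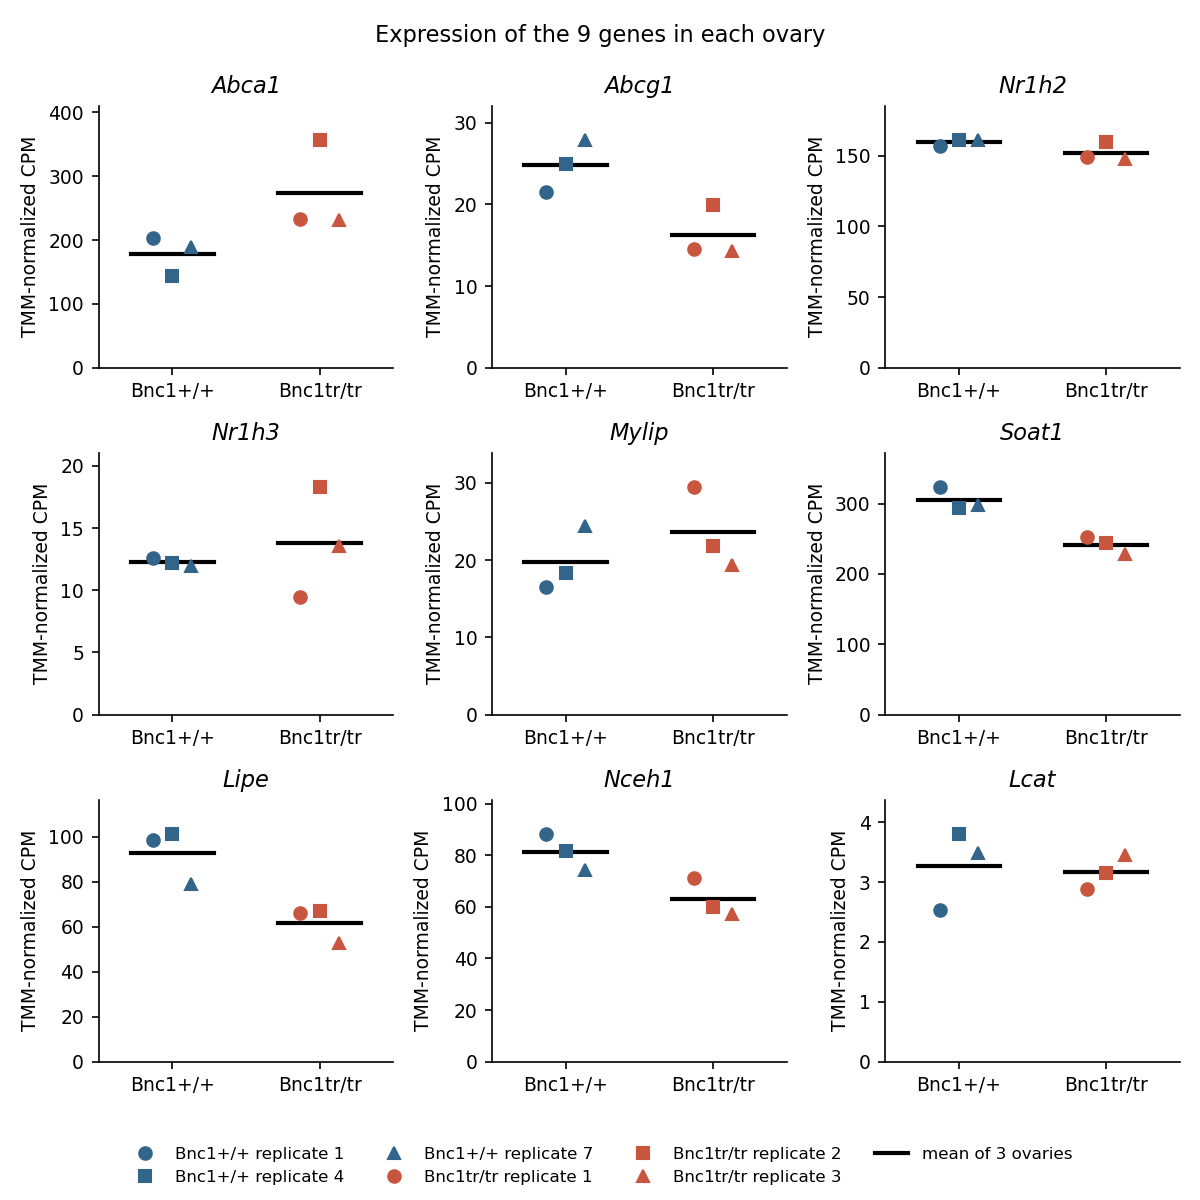
Each panel shows 1 gene in TMM-normalized CPM (vertical axis from 0), with a point for each of the 3 Bnc1+/+ and 3 Bnc1tr/tr ovaries and a bar at each mean. Abca1 lies higher in all Bnc1tr/tr ovaries, Abcg1, Soat1, Lipe and Nceh1 lie lower in all of them, and the genotypes overlap for Nr1h2, Nr1h3, Mylip and Lcat.

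**Figure D3:**
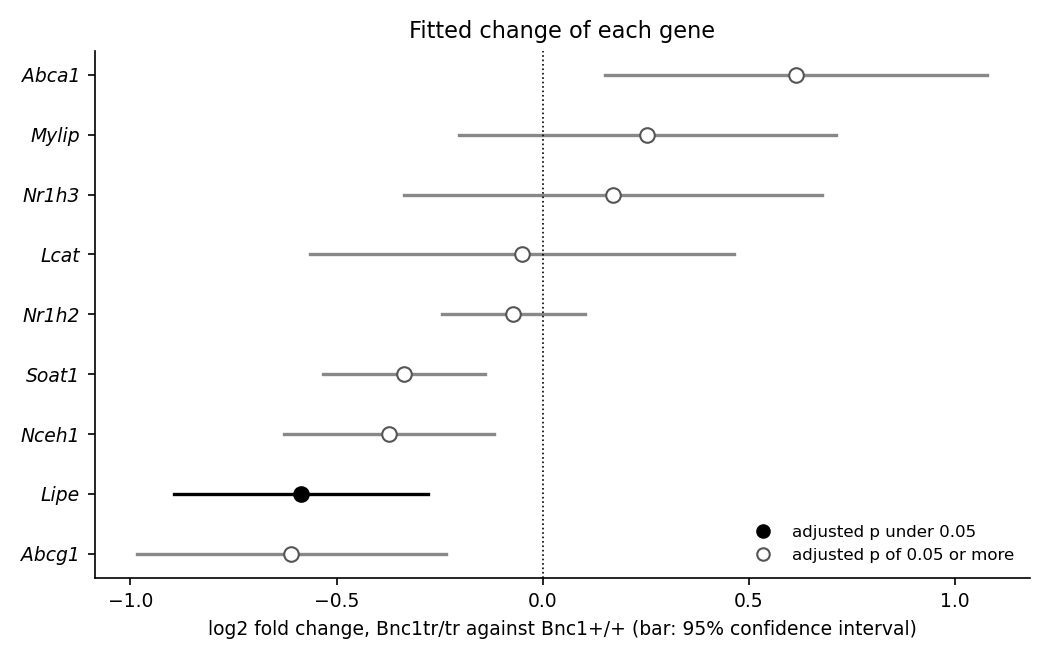
Points are fitted log2 fold changes of Bnc1tr/tr against Bnc1+/+ ovaries and lines are their 95% confidence intervals; the filled point passed the test. Lipe is the filled one, at −0.59, while Abca1 (0.62) and Abcg1 (−0.61) lie at opposite ends.

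Neither LXR gene passed the test, and the genotypes overlapped for both. Nr1h2 (LXRβ; GRCm38 chr7:44549616-44553951, minus strand), the LXR found in most tissues, was measured at 157, 161 and 161 CPM in Bnc1+/+ and at 149, 160 and 148 CPM in Bnc1tr/tr ovaries. These 6 values overlapped and lay close together, with means of 160 ± 2.43 and 152 ± 6.51 CPM. Its log2 fold change was −0.071 (SE 0.074, 95% confidence interval −0.24 to 0.10), the narrowest interval of the 9 genes, and turned to 0.028 with scaling by library size alone.

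Nr1h3 (LXRα; chr2:91184061-91202834, minus strand), the LXR best known from liver, fat and macrophages, was measured at 12.6, 12.2 and 11.9 CPM in Bnc1+/+ and at 9.50, 18.3 and 13.5 CPM in Bnc1tr/tr ovaries. The Bnc1+/+ ovaries were nearly equal (12.2 ± 0.317 CPM), while the Bnc1tr/tr ovaries lay on both sides of them (13.8 ± 4.42 CPM). The log2 fold change was 0.17 (SE 0.22, 95% confidence interval −0.34 to 0.68), and without Bnc1tr/tr replicate 2 it was −0.089. Macrophage markers summed over 12 genes to 608 to 652 CPM in Bnc1+/+ ovaries and to 417 to 822 CPM in Bnc1tr/tr ovaries, and the ovary with the highest sum, Bnc1tr/tr replicate 2, was also the highest for Nr1h3. The part of macrophages in that value was not tested. A small overlap of 34 exonic bases with Gm13783 on the same strand leaves the Nr1h3 count slightly uncertain.

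Per kilobase of exon, Nr1h2 stood above Nr1h3 in every ovary. The ratio was 9.38, 9.92 and 10.1 in Bnc1+/+ ovaries, against 11.8, 6.54 and 8.20 in Bnc1tr/tr ovaries. The Bnc1tr/tr ratios thus spread to both sides of the Bnc1+/+ ones.

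Of the efflux transporters, neither passed the test in edgeR, and their fold changes had opposite signs. Abca1 (chr4:53030787-53159895, minus strand) was measured at 203, 144 and 190 CPM in Bnc1+/+ and at 233, 357 and 231 CPM in Bnc1tr/tr ovaries. All Bnc1tr/tr ovaries were higher, and replicate 2 stood well above the other two. The means were 179 ± 30.8 and 274 ± 72.4 CPM, and the log2 fold change was 0.62 (SE 0.20, 95% confidence interval 0.15 to 1.08). It missed the threshold in edgeR (Benjamini-Hochberg adjusted p = 0.109) and passed it in DESeq2 (adjusted p = 0.0239). Without Bnc1tr/tr replicate 2 the log2 fold change was 0.37.

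Abcg1 (chr17:31057675-31117988, plus strand) was measured at 21.6, 25.0 and 27.9 CPM in Bnc1+/+ and at 14.6, 20.0 and 14.3 CPM in Bnc1tr/tr ovaries. All Bnc1tr/tr ovaries were lower, replicate 2 coming nearest to wild type. The means were 24.8 ± 3.19 and 16.3 ± 3.21 CPM, and the log2 fold change was −0.61 (SE 0.16, 95% confidence interval −0.98 to −0.23). The edgeR test missed its threshold (Benjamini-Hochberg adjusted p = 0.0645), and it passed without Bnc1tr/tr replicate 2 (log2 fold change −0.78, adjusted p = 0.0271). DESeq2 also called Abcg1 lower (adjusted p = 0.0117). Endothelial markers, from another cell type of the ovary, summed over 5 genes to 424 to 540 CPM in Bnc1+/+ and to 285 to 316 CPM in Bnc1tr/tr ovaries, and their part in the Abcg1 level was not tested.

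Within an ovary, the count of Abca1 relative to Abcg1 does not depend on how the library is scaled. It was 9.40, 5.77 and 6.79 in Bnc1+/+ ovaries, against 16.0, 17.9 and 16.2 in Bnc1tr/tr ovaries, so that the genotypes did not overlap. The difference was 1.22 on the log2 scale, or 2.33-fold. An exact two-sided permutation test gave p = 0.1, the smallest that 3 ovaries against 3 can give, and 0.2 after Benjamini-Hochberg adjustment over 6 ratios. With Abca1 higher and Abcg1 lower in every Bnc1tr/tr ovary, the ratio had to separate the genotypes. Its lack of overlap and its p thus add nothing to those 2 separations.

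Because Abca1 and Mylip are textbook LXR targets, the 250 bases before the RefSeq start sites of the 9 genes (GRCm38.p6) were searched on both strands for DR4-like sites, a pair of AGGTCA repeats 4 bases apart with up to 3 mismatches in the 12 bases of the pair. A window was at hand for 8 of the 9 genes, 10 windows in all, and none for Abcg1. Abca1 and Lcat held such a site, which 18.5% of 32841 mouse promoters hold as well. The Abca1 window is printed because it carries a DR4-like site and an E-box in the gene with the highest fold change of the 9. It lies at chr4:53159896-53160145 on the minus strand, and capitals mark the E-box (CACGTG, 147 to 142 bases before the start) and the DR4-like site (67 to 52 bases before it).
Abca1: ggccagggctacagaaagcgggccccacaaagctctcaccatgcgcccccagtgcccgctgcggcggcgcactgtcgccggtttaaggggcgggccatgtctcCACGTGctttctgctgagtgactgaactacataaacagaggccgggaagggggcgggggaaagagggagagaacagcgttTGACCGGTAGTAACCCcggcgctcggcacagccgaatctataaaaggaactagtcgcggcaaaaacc

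The 2 sites are set side by side, each in the orientation of the consensus and each with 3 mismatches, because these are the only DR4-like sites found in the windows of the 9 genes.
Abca1: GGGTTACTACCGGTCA
Lcat: AGGCCAGCCCAGGACT

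The Abca1 site lies at chr4:53159947-53159962 and the Lcat site at chr8:105943409-105943424, 22 to 7 bases before the Lcat start. An E-box was also found in a window of Lipe that lies wholly within annotated exons (155 to 150 bases before the start), and 6.02% of all promoters hold one. The Nceh1 window held one 26 to 21 bases before the RefSeq start, at chr3:27182978-27182983. GENCODE starts Nceh1 at 27182965, so this site lies inside the annotated gene, and 39 bases of the window are in annotated exons. GC boxes (GGGCGG) were found in windows of Abca1, Mylip and Lipe, and 32.7% of promoters hold one. The CCAAT box was found for Mylip, Soat1, Nceh1 and Lcat, and in 33.9% of promoters. No window held an exact site for the NR5A receptors (CAAGGTCA, in 1.33% of promoters) or the sterol response element core (TCACNCCAC, in 1.05%). Abca1 and Lcat, the genes with a DR4-like site, thus had log2 fold changes of 0.62 and −0.051. A match of letters is not a binding site, and sites further from the start were not searched.

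Mylip (chr13:45389742-45412022, plus strand) encodes an LXR-induced ubiquitin ligase, also called IDOL, that sends lipoprotein receptors to degradation. It was measured at 16.5, 18.4 and 24.5 CPM in Bnc1+/+ and at 29.5, 21.8 and 19.4 CPM in Bnc1tr/tr ovaries. The genotypes overlapped, with means of 19.8 ± 4.16 and 23.6 ± 5.26 CPM. The log2 fold change was 0.25 (SE 0.20, 95% confidence interval −0.20 to 0.71; edgeR, Benjamini-Hochberg adjusted p = 0.479), and without Bnc1tr/tr replicate 1 it was 0.060.

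Receptors that this ligase acts on were read at the RNA level, where its action on the protein does not show. Lrp8, the apolipoprotein E receptor 2, fell from 45.5 ± 14.6 to 21.1 ± 5.30 CPM, a log2 fold change of −1.10 that lay just past the threshold (edgeR, Benjamini-Hochberg adjusted p = 0.0498). Vldlr, the receptor for very low density lipoprotein, had a log2 fold change of −0.081 (edgeR, Benjamini-Hochberg adjusted p = 0.689).

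Soat1 (chr1:156424525-156474331, minus strand) encodes the acyltransferase of the endoplasmic reticulum that turns free cholesterol into ester. It was measured at 324, 293 and 297 CPM in Bnc1+/+ and at 253, 244 and 228 CPM in Bnc1tr/tr ovaries. Every Bnc1tr/tr ovary was lower, and both groups were tight, with means of 305 ± 16.6 and 242 ± 12.8 CPM. The mean changed by −20.8% in Bnc1tr/tr, with a log2 fold change of −0.34 (SE 0.085, 95% confidence interval −0.53 to −0.14). In edgeR this missed the threshold (Benjamini-Hochberg adjusted p = 0.0564), and in DESeq2 it passed (adjusted p = 0.00571). Soat2, a related enzyme best known from liver and intestine, was at 2.31 ± 0.504 and 1.14 ± 0.169 CPM, without overlap between genotypes. Its log2 fold change of −1.01 also missed the edgeR threshold (Benjamini-Hochberg adjusted p = 0.0637), and DESeq2 called it lower.

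Lipe (chr7:25379527-25398710, minus strand) encodes hormone-sensitive lipase, which hydrolyses cholesteryl esters in steroid-producing cells and acylglycerols in fat. It was measured at 98.4, 101 and 79.0 CPM in Bnc1+/+ and at 66.3, 66.8 and 52.6 CPM in Bnc1tr/tr ovaries. All Bnc1tr/tr ovaries were lower than all Bnc1+/+ ovaries. Lipe fell from 92.9 ± 12.2 to 61.9 ± 8.06 CPM, a log2 fold change of −0.59 (SE 0.13, 95% confidence interval −0.90 to −0.28; edgeR, Benjamini-Hochberg adjusted p = 0.0413). The mean changed by −33.4%. The call was lost when any 1 ovary other than Bnc1+/+ replicate 7 was left out (adjusted p from 0.0585 to 0.161) and with scaling by library size alone (adjusted p = 0.0556), and Lipe was lower under each of these.

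Fat cells are rich in Lipe, so adipocyte markers are given beside it. The 8 markers summed to 742 to 1271 CPM in Bnc1+/+ and to 74.5 to 449 CPM in Bnc1tr/tr ovaries, and most of the sum in Bnc1+/+ came from Plin4. The other 7 summed to 53.1, 16.8 and 94.8 CPM in Bnc1+/+ and to 364, 263 and 36.4 CPM in Bnc1tr/tr ovaries. Of the 8 genes Plin1 rose and Plin4 fell, and the remaining ones did not pass. That is 25% called, where 7.06% of all genes tested were. In the same order of ovaries, Lipe was at 98.4, 101 and 79.0 CPM in Bnc1+/+ and at 66.3, 66.8 and 52.6 CPM in Bnc1tr/tr. The part of fat tissue in the Lipe level was not tested.

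Lipe overlaps an annotated antisense gene, 4732471J01Rik, over 918 exonic bases, 15.6% of its exons. Whether reads were counted by strand is not given in the sources used here. The antisense gene had 53, 62 and 54 counts in Bnc1+/+ ovaries, against 37, 41 and 39 in Bnc1tr/tr ovaries, few beside those of Lipe. Its log2 fold change was −0.42 (edgeR, Benjamini-Hochberg adjusted p = 0.292).

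Among 16752 tested genes with a mean of at least 1 CPM, the profiles most like that of Lipe were those of Pdp2, Atp8b4 and Ankrd29. Likeness was the mean absolute distance over the 6 ovaries between log2 CPM profiles centred on their own means, which was 0.0403, 0.0472 and 0.0639 for these genes. Pdp2, a regulatory phosphatase of the pyruvate dehydrogenase complex, had a log2 fold change of −0.56 (edgeR, Benjamini-Hochberg adjusted p = 0.0619). Atp8b4 and Ankrd29 had log2 fold changes of −0.49 and −0.68, and neither passed the test (adjusted p = 0.255 and 0.150).

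Nceh1 (chr3:27182965-27284608, plus strand) encodes neutral cholesterol ester hydrolase 1, studied mainly in macrophages. It was measured at 88.4, 81.5 and 74.5 CPM in Bnc1+/+ and at 71.2, 60.0 and 57.3 CPM in Bnc1tr/tr ovaries. The highest Bnc1tr/tr ovary lay just under the lowest Bnc1+/+ one. The means were 81.4 ± 6.95 and 62.9 ± 7.38 CPM, with a log2 fold change of −0.37 (SE 0.11, 95% confidence interval −0.63 to −0.12). It missed the edgeR threshold (Benjamini-Hochberg adjusted p = 0.0857), passed it without Bnc1tr/tr replicate 1 (log2 fold change −0.47, adjusted p = 0.0396) and passed in DESeq2 (adjusted p = 0.0355).

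Genes for making and for splitting esters were compared as ratios of counts in the same ovary. These are ratios of RNA and do not show the activity of the enzymes. Soat1 relative to Nceh1 was 3.67, 3.60 and 3.99 in Bnc1+/+ ovaries, against 3.55, 4.07 and 3.97 in Bnc1tr/tr ovaries. These overlapped almost entirely, with a difference of 0.040 on the log2 scale (exact two-sided permutation p = 0.8, 0.8 after adjustment). Soat1 relative to Lipe was 3.29, 2.89 and 3.76 in Bnc1+/+ ovaries, against 3.82, 3.65 and 4.33 in Bnc1tr/tr ovaries. Here the ranges overlapped at 1 ovary of each genotype, and the difference of 0.25 did not pass (exact two-sided permutation p = 0.2, adjusted 0.3).

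Lcat (chr8:105939551-105943382, minus strand) encodes the enzyme that esterifies cholesterol on plasma HDL and is made mainly by liver. It had the lowest counts of the 9 genes, 68 to 126 per ovary. Its levels were 2.53, 3.81 and 3.48 CPM in Bnc1+/+ and 2.88, 3.16 and 3.45 CPM in Bnc1tr/tr ovaries. The Bnc1tr/tr values all lay within the Bnc1+/+ range, and the means were 3.27 ± 0.665 and 3.16 ± 0.287 CPM. The log2 fold change was −0.051 (SE 0.22), and its 95% confidence interval of −0.56 to 0.46 leaves room for a change of either sign.

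Of the remaining 2 ratios, 1 set the LXR genes against each other and 1 set an efflux transporter against a lipoprotein receptor. Nr1h3 relative to Nr1h2 was 0.0799, 0.0756 and 0.0739 in Bnc1+/+ ovaries, against 0.0636, 0.115 and 0.0915 in Bnc1tr/tr ovaries, an overlap with a log2 difference of 0.19 (exact two-sided permutation p = 0.6, adjusted 0.72). Abca1 relative to Scarb1, the receptor through which ovarian cells take cholesteryl ester from HDL, was 0.0867, 0.0522 and 0.0722 in Bnc1+/+ ovaries, against 0.367, 0.484 and 0.306 in Bnc1tr/tr ovaries. The genotypes were far apart, 5.50-fold in the mean ratio, with the smallest p the design allows (exact two-sided permutation p = 0.1, adjusted 0.2). Most of that distance came from Scarb1, whose log2 fold change was −1.86. Scarb1 was also lower in every Bnc1tr/tr ovary and Abca1 higher, so the separation of this ratio and its p follow from the single genes.

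**Figure D4:**
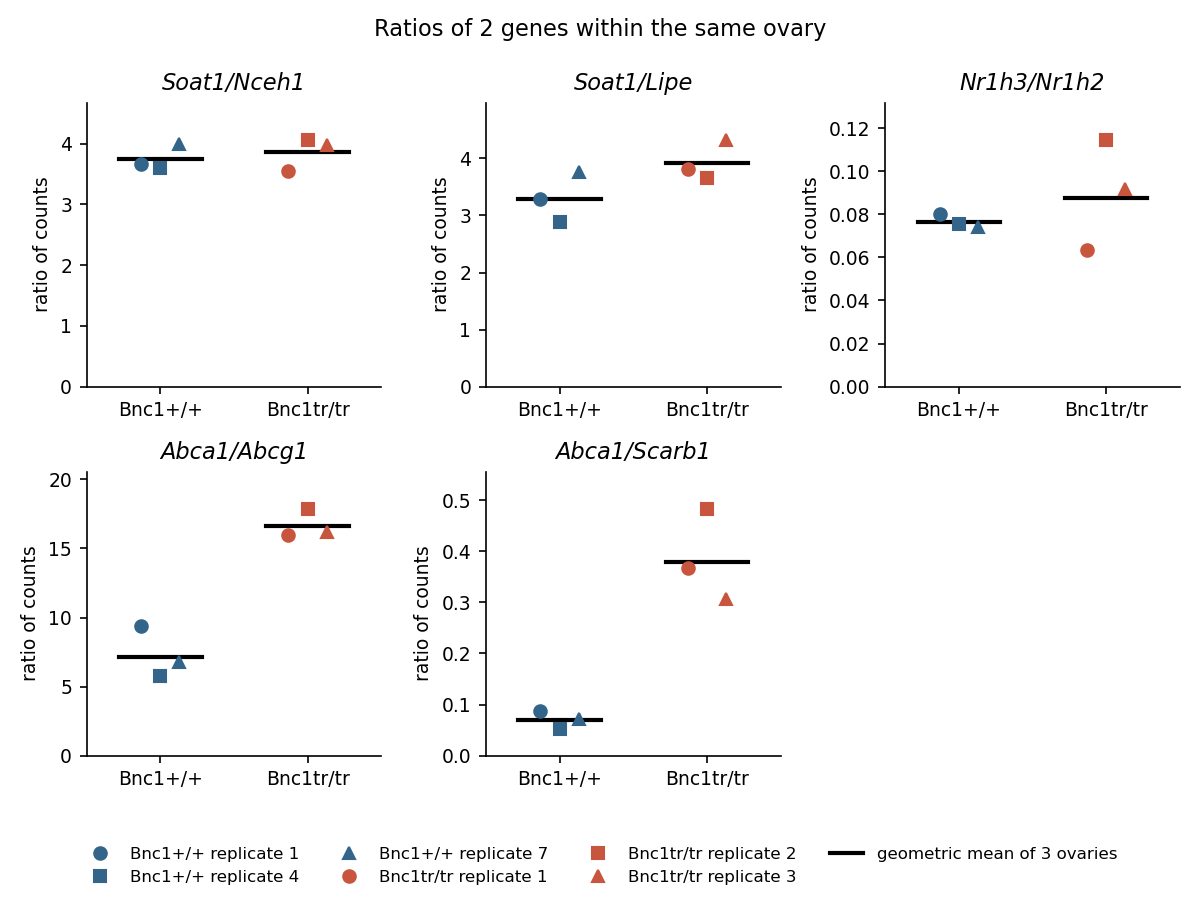
Each panel plots the ratio of the counts of 2 genes within an ovary (vertical axis from 0), for 3 Bnc1+/+ and 3 Bnc1tr/tr ovaries, with bars at the geometric means. Abca1/Abcg1 and Abca1/Scarb1 do not overlap between genotypes, while the other 3 ratios do.

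Around the 9 genes, 64 further genes were listed in 7 groups, and 57 could be tested. Of these 8 were called, 1 higher and 7 lower. This is 14.0%, where 7.06% of all genes were called, and the median log2 fold change of the 57 was 0.018. The calls fell in 3 of the groups: efflux and HDL, sterol transport, and the lipoprotein receptors above. Without the ovary of each genotype with the highest oviduct markers, 3 of the 57 were called.

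Of 16 other LXR target genes 13 were tested, and edgeR called 0 of them, where 7.06% of all genes were called, so that a count of 0 in so short a list does not set it apart. An unadjusted p under 0.05 was reached by 4 of the 13, or 30.8%, beside 24.2% of all genes, and a single one was called in DESeq2 and none in limma-voom. Their median log2 fold change was 0.046. Without overlap between genotypes 0 were higher and 3 lower, where 15% and 15.8% of all genes were. Lpcat3, which remodels membrane phospholipids, stood at −0.62 without overlap between genotypes (edgeR, Benjamini-Hochberg adjusted p = 0.0996), and Lpl, the lipase of triglyceride-rich lipoproteins, at 0.77 with overlap (adjusted p = 0.195). Srebf1, the LXR-driven regulator of fatty acid synthesis, stood at −0.23, also without overlap between genotypes (edgeR, Benjamini-Hochberg adjusted p = 0.107). Apoe, an apolipoprotein that can accept effluxed cholesterol, stood at 0.046 (edgeR, Benjamini-Hochberg adjusted p = 0.920).

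The 10 partners and coregulators, with a median of 0.17, had 0 calls in edgeR, DESeq2 and limma-voom. An unadjusted p under 0.05 was reached by 4 of them, or 40%, beside 24.2% of all genes. Without overlap between genotypes 4 were higher and 2 lower, where 15% and 15.8% of all genes were. The RXR genes Rxra, Rxrb and Rxrg stood at 0.31, 0.19 and 0.78 (edgeR, Benjamini-Hochberg adjusted p = 0.123, 0.206 and 0.303). Each was higher in every Bnc1tr/tr ovary than in any Bnc1+/+ ovary, Rxrg at means of only 0.341 and 0.595 CPM. The 7 enzymes that make or remove oxysterols, with a median of 0.018, had 0 calls in edgeR, DESeq2 and limma-voom. Among them 1 gene, or 14.3%, had an unadjusted p under 0.05, beside 24.2% of all genes. It was Cyp27a1, a mitochondrial sterol hydroxylase (log2 fold change 0.39, edgeR, Benjamini-Hochberg adjusted p = 0.111).

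Genes of efflux and HDL beyond Abca1 and Abcg1 held 4 calls among 8 tested, or 50%, where 7.06% of all genes were called. The list was chosen with earlier results of these data known. Apoa1, the acceptor for ABCA1, rose from 43.7 ± 8.40 to 95.9 ± 11.2 CPM (log2 fold change 1.13, edgeR, Benjamini-Hochberg adjusted p = 0.00650). Scarb1 fell from 2574 ± 216 to 709 ± 66.1 CPM (edgeR, Benjamini-Hochberg adjusted p = 4.08e-04). Abca7, a transporter related to Abca1, fell from 92.1 ± 9.95 to 45.8 ± 7.65 CPM, a log2 fold change of −1.01 against the 0.62 of Abca1 (edgeR, Benjamini-Hochberg adjusted p = 0.00682). Lipg, an endothelial lipase that acts on HDL phospholipids, fell from 223 ± 161 to 36.1 ± 15.1 CPM (log2 fold change −2.63, edgeR, Benjamini-Hochberg adjusted p = 0.0327).

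Of the other ester enzymes 3 of 5 were tested, and 0 were called by edgeR or limma-voom. Soat2 was the 1 at an unadjusted p under 0.05, or 33.3% beside 24.2% of all genes, and the 1 called lower in DESeq2. The median of the 3 was −0.061. Of 14 sterol transport genes, median 0.027, edgeR called 3, all lower. That is 21.4%, where 4.19% of all genes were called lower. Star, which brings cholesterol into mitochondria for steroid synthesis, fell from 2127 ± 468 to 452 ± 275 CPM (log2 fold change −2.23, edgeR, Benjamini-Hochberg adjusted p = 0.0374). Npc2, a lysosomal cholesterol carrier, fell by 1.04 and Stard4, a cytosolic one, by 0.81 on the log2 scale (edgeR, Benjamini-Hochberg adjusted p = 0.00367 and 0.0148).

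**Figure D5:**
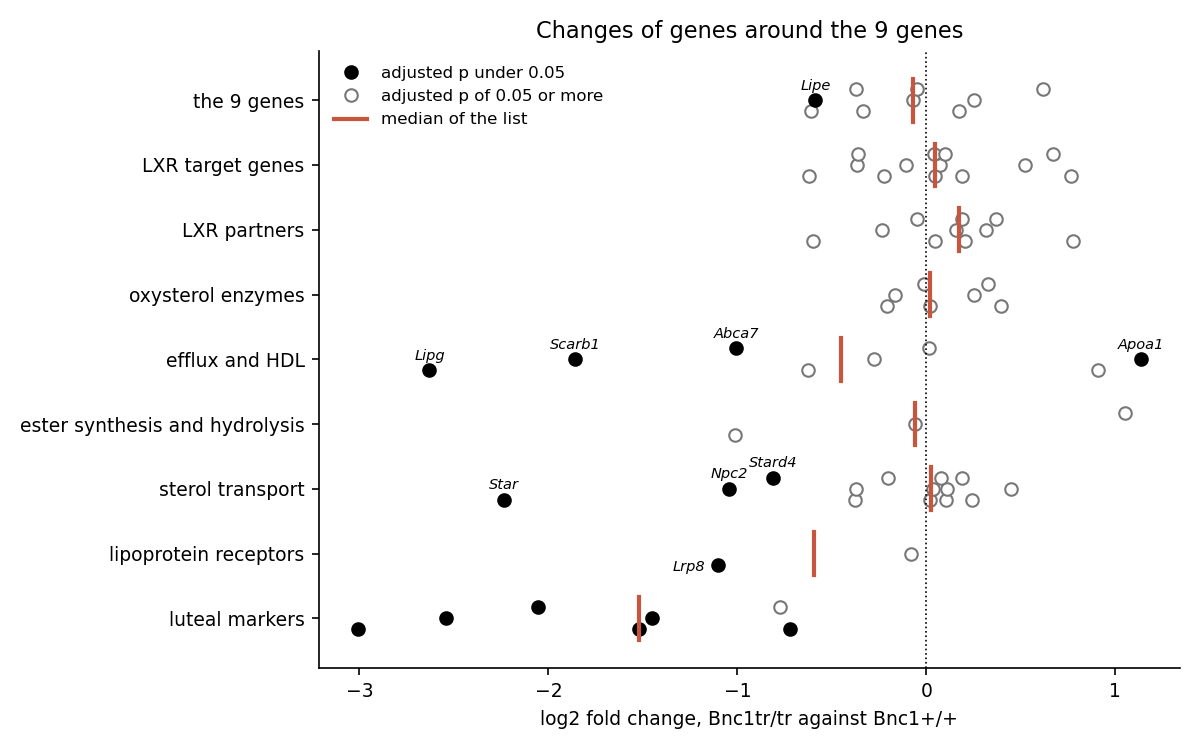
Each point is the log2 fold change of a tested gene, Bnc1tr/tr against Bnc1+/+, grouped by list, with filled points past the test and a bar at the median of each list. Filled points in the lists around the 9 genes lie in efflux and HDL, sterol transport and the lipoprotein receptors, and the luteal markers, plotted for comparison, have a median of −1.52.

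Among the cell type markers, edgeR called 6 of 7 luteal and all 5 endothelial ones, and 0 of the theca and stroma or macrophage ones. The luteal markers had a median log2 fold change of −1.52, and the members that were lower in all Bnc1tr/tr ovaries, Abcg1, Soat1, Lipe and Nceh1, had log2 fold changes from −0.61 to −0.34. Granulosa markers summed over 9 genes to 3504 to 4714 CPM in Bnc1+/+ and to 3923 to 6039 CPM in Bnc1tr/tr ovaries, with 1 called higher. Theca and stroma markers summed over 8 genes to 2465 to 2668 and to 2763 to 2946 CPM, with 0 called by edgeR, 1 at an unadjusted p under 0.05 and 1 higher in DESeq2. Oocyte markers summed over 9 genes to 524 to 686 and to 656 to 1003 CPM, with 3 higher. Of the 12 macrophage markers edgeR and DESeq2 called 0, with 1 at an unadjusted p under 0.05, and of the 5 endothelial markers 4 fell and Vwf rose. Over all genes tested, edgeR called 7.06% and DESeq2 12.5%, and 24.2% had an unadjusted p under 0.05. The share called by edgeR was 85.7% for luteal, 100% for endothelial, 33.3% for oocyte and 11.1% for granulosa markers. At an unadjusted p under 0.05, theca and stroma (12.5%) and macrophage markers (8.33%) lay below the share of all genes. No marker was at 0 in every ovary, and the part of these cell types in the levels of the 9 genes was not tested.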

How the data were processed

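Whole-ovary RNA was extracted with TRIzol and sequenced single-end on an Ion Proton after library preparation with an Ion Total RNA-Seq kit. The authors deposited raw counts, whole numbers of reads per gene symbol with no normalization. The submitters' processing notes name the builds mm10 and Sscrofa10.2; the aligner, counter, annotation and strand setting are not given in the sources used here. Counts of the 6 ovaries were filtered with filterByExpr (minimum count 10), which kept 19423 of 44788 genes, scaled with TMM (factors 0.958 to 1.04) and compared by genotype with edgeR 4.0.16 (R 4.3.3; two-sided glmQLFit and glmQLFTest, p-values adjusted by Benjamini-Hochberg, threshold 0.05). No 2 libraries of a genotype were duplicates (chi-square per degree of freedom 17.0 to 65.5 over 6 pairs). Exon lengths and coordinates came from GENCODE M21 (GRCm38), and promoter windows from RefSeq (GRCm38.p6). DESeq2 1.42.0, limma-voom (limma 3.58.1), other scalings and filters, and leaving out ovaries were alternatives. The study compared littermates, but the labels tie no ovary to a litter, so the tests take no account of litters. Leaving out both ovaries with the highest oviduct markers was added after seeing the data. Ratios of counts within an ovary were compared with exact permutation tests. The named genes are the 9 genes, the called genes of the 7 lists, the genes of the 6 ratios, the 3 profiles nearest to each called member and genes overlapping a member's exons. Lpcat3, Lpl, Srebf1, Apoe, Rxra, Rxrb, Rxrg, Vldlr, Soat2 and Cyp27a1 were named after their values were seen. The genes and all lists were chosen with earlier results of these data known. Adgre1 was matched through its older symbol Emr1. Of the 6 ratios 1 is not reported here, and p-values were adjusted over all 6.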

Additional observations from a re-analysis of the deposited data

How the results depend on the processing

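The design was 3 ovaries against 3, with a common biological coefficient of variation of 0.186. The intervals of Nr1h2, Nr1h3, Mylip and Lcat leave changes of either sign possible. No exact permutation test of a ratio can go below p = 0.1 at this size. No paired analysis was possible because the genotypes share only replicate number 1 and the labels name no litter; the study's mice were littermates, which the unpaired tests ignore.

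Of the 9 genes 1 was called; the count was 0 with scaling by library size alone, 2 with no filter, 5 with DESeq2, 5 at an unadjusted p, 0 without both ovaries with the highest oviduct markers, and 0 to 1 when an ovary was left out (0 without Bnc1+/+ replicate 1 or 4 or Bnc1tr/tr replicate 3; without Bnc1tr/tr replicate 1 or 2 the called gene was Nceh1 or Abcg1, not Lipe). Of the genes around them 8 were called; the count was 22 at an unadjusted p, 5 with robust dispersion in edgeR, 3 without both of those ovaries, and 4 to 8 when an ovary was left out, the 4 without Bnc1+/+ replicate 4. Scaling by library size alone moved the median of all genes to 0.12 and the share of lower calls from 59.3% to 35.6%. Over all genes 1372 were called, 2420 with DESeq2, 304 without both ovaries and 320 to 1282 without 1 ovary, the fewest without Bnc1+/+ replicate 4.

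Gains of a call were Abca1 (0.61), Abcg1 (−0.61), Soat1 (−0.34) and Nceh1 (−0.38) with DESeq2, and Abcg1 with no filter (−0.61). Log2 fold changes with an ovary left out ran from −0.78 to −0.52 for Abcg1, −0.47 to −0.31 for Nceh1, −0.70 to −0.48 for Lipe, −0.089 to 0.38 for Nr1h3 and −0.21 to 0.065 for Lcat. Lipe lost its call at −0.49 with library size alone and at −0.45 without both ovaries. The sign turned for Nr1h2 (0.028) and Lcat (0.048) with library size alone, for Nr1h3 (−0.089) and the Nr1h3/Nr1h2 ratio (−0.0029, range to 0.42) without Bnc1tr/tr replicate 2, and for Lcat without Bnc1+/+ replicate 4 (0.065) or Bnc1tr/tr replicate 1 (0.012). The cause was not tested. Of 14 alternatives, the call ended in 9 for Lrp8, 6 for Star, 5 for Lipg, 2 for Stard4 and 1 each for Apoa1 and Abca7, and in none for Scarb1 and Npc2. Leaving out Bnc1+/+ replicate 4 ended the calls of Lipg, Stard4, Star and Lrp8 (edgeR, Benjamini-Hochberg adjusted p from 0.0575 to 0.165). Abca1, Abcg1, Soat1, Lipe, Nceh1 and Mylip kept their direction under all 14. Mylip was called under none of them, and its log2 fold change ran from 0.060 to 0.42.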
